A study of Mus musculus with 70 samples.

Results

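The clustered protocadherins were taken as every row of the gene-level expression table whose symbol begins with Pcdha followed by a digit or c, or consists of Pcdhb and a number, or of Pcdhga, Pcdhgb or Pcdhgc and a number. The rule uses names and no measured value, and it found 57 of 34677 genes. They fall into the alpha cluster with 13 genes, the beta cluster with 22 genes and the gamma cluster with 22 genes. The expression of the 3 clusters, and of single members within them, was described over 24 groups of libraries.

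The study profiled poly(A) RNA from the mouse brain, taken as punches of dissected regions, and from mouse embryonic stem cells (mESC). The adult set held 57 libraries of 18 regions from male C57BL/6 mice (C57BL/6NTac in the study's methods) at postnatal day 56, with 2 to 4 libraries per region. The embryonic set held 9 libraries of 4 regions from C57BL/6 embryos (likewise C57BL/6NTac) at E14.5, and the mESC set held 4 libraries of 2 lines, B6-1 and B6-2, also of C57BL/6 origin. No group carried a transgene or a treatment. The adult regions were 3 cortical areas (anterior cingulate area, ACA; frontal pole, FRP; entorhinal area, ENT), the nucleus accumbens (ACB) of the ventral striatum, and 5 hypothalamic regions (arcuate, ARH; ventromedial, VMH; dorsomedial, DMH; and paraventricular, PVH, nuclei; lateral area, LHA). They also included the ventral tegmental area (VTA) of the midbrain, 3 hindbrain regions (parabrachial nucleus, PB; nucleus of the solitary tract, NTS; dorsal vagal complex, DVC), the cerebellar nuclei (CBN) and 4 parts of the cerebellar cortex (CENT2, CUL4-5, UVU and the flocculus, FL). The embryonic regions were forebrain (F, 1 library), midbrain (M, 2 libraries), hindbrain (H, 3 libraries) and terminal and peduncular hypothalamus (THy-PHy, 3 libraries). Adult libraries pooled tissue of several mice, apart from 1 ACB library of a single mouse, and embryonic libraries pooled several embryos, so p-values measure the spread between pools. The study used fewer mice and embryos than the libraries would need without sharing, so libraries of different regions share animals. The labels do not tie libraries to animals, and the tests treated all libraries as independent, which may make p-values between regions too small or too large. By the study's sample overview adult, embryonic and mESC libraries were prepared in separate batches, so stage and batch cannot be told apart.

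Clustered protocadherins are cadherin-family adhesion molecules of the cell surface. Each alpha or gamma gene has its own promoter and a large variable exon, which is spliced to constant exons that all genes of the cluster share, while beta genes stand alone without constant exons. Single neurons choose a few of the variable promoters, and the resulting mix of isoforms recognises itself on other membranes, which is known to underlie the self-avoidance of dendrites and axons. The C types at the end of the alpha cluster (Pcdhac1 and Pcdhac2) and of the gamma cluster (Pcdhgc3, Pcdhgc4 and Pcdhgc5) are known to follow less of this random choice than the other members, and some of them are used by nearly all neurons of a kind.

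All members lie on the plus strand of chromosome 18 in GRCm38. The alpha cluster runs from 36930184 to 37187661 (257.5 kb), the beta cluster from 37264938 to 37524479 (259.5 kb) and the gamma cluster from 37661793 to 37841873 (180.1 kb). In the annotation the longest coding transcript of every alpha and gamma member has 4 exons and that of every beta member has 1 exon. This structure bears on how reads could be assigned. Of all 31-base stretches of these transcripts, a median of 35.9% was found in no other gene's transcripts for alpha members, 88.2% for beta members and 52.6% for gamma members. The lowest share was 2.18%, for Pcdha4. The deposited counts are estimates in which a read that fits several genes is divided between them. Of the values above 0, 43.2% of those of all genes were whole numbers (within 0.001), against 0.230% for alpha, 4.19% for beta and 0.714% for gamma members. Nearly every value given here for an alpha or gamma member therefore rests in part on divided reads, and differences between near-identical members are uncertain to that extent. The symbol Pcdha11 covers 2 gene identifiers, which begin at 37005203 and 37010712. RefSeq places the starts of Pcdha10 and Pcdha11 nearby, at 37005320 and 37010858, so the row may hold both genes, and its rank rests on the sum. Pcdhgb8 is annotated as a polymorphic pseudogene.

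Estimated counts summed to 13409041 to 20647884 per adult library, 9074581 to 22229582 per embryonic library and 12985081 to 18501667 per mESC library. The members together took 0.0557% to 0.143% of an adult library. The median count of a member per library was 143 in the alpha cluster, 81.1 in the beta cluster and 301 in the gamma cluster, and the median coefficient of variation between replicates was 16%, 13% and 13% for the same clusters. A pair of libraries stood apart. In replicate 1 of VTA mitochondrial genes held 39.6% of all transcripts and in replicate 1 of H 22.6%, against a median of 7.49% and 14.2% in the next highest library. Replicate 1 of H was also the library with the lowest total, 9074581. Levels are given as TPM, a unit of relative transcript abundance that corrects for transcript length and sums to the same total in every library, so a large mitochondrial share lowers all other values. The summed gamma level was 73.0, 228.1 and 184.4 TPM in the 3 VTA libraries and 155.1, 281.1 and 379.5 TPM in the 3 H libraries. With mitochondrial genes left out these became 120.9, 242.8 and 214.9 TPM for VTA and 200.3, 318.7 and 404.2 TPM for H, so the first library of both groups remained the lowest.

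The 3 clusters ranked the adult brain differently. The summed alpha level was highest in the 3 cortical areas, at 87.5 ± 5.08 TPM (SD, n = 3) in ACA, 82.5 in FRP and 81.8 in ENT, followed by 72.9 in the cerebellar region CUL4-5. Beta members summed to 91.2 ± 2.39 TPM (n = 4) in CUL4-5 and 90.6 ± 8.10 TPM (n = 3) in ACB, and gamma members to 505.9 ± 14.6 TPM (n = 3) in ACB and 505.3 ± 9.54 TPM (n = 4) in CUL4-5. The lower end was shared more widely. The alpha and beta sums were lowest in CBN among adult regions, at 34.3 and 44.8 TPM, and the gamma sum was lowest in VTA, at 161.8 TPM, where replicate 1 had 73.0 TPM and the other 2 libraries 228.1 and 184.4 TPM, and next lowest in NTS, at 195.9 TPM. Without that replicate, left out after the data were seen, the gamma sum was lowest in NTS and VTA followed at 206.3 TPM. Over the 57 adult libraries the alpha sum ran from 26.7 through a median of 56.3 to 95.3 TPM, the beta sum from 41.3 through 63.0 to 99.9 TPM, and the gamma sum from 73.0 through 352.5 to 518.2 TPM. Neighbours in these orders were rarely separated. Of the 21 neighbouring pairs among the 22 brain regions, the libraries of 17 pairs overlapped for alpha, 18 for beta and 19 for gamma. In bulk tissue a smaller share of expressing cells and less RNA per cell cannot be told apart.

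**Figure D1:**
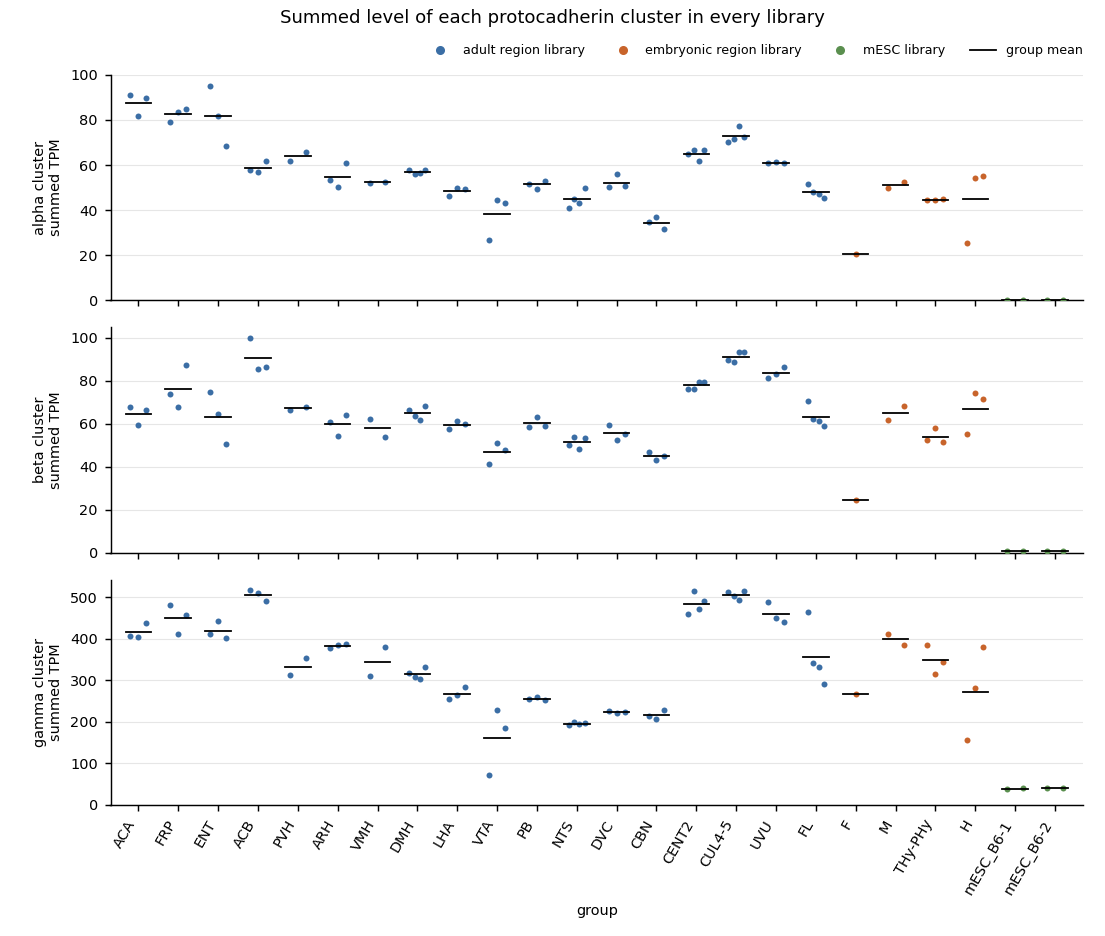
Summed TPM of the alpha, beta and gamma members in each of the 24 groups; points are libraries and bars are group means. The alpha sum was highest in the cortical areas (81.8 to 87.5 TPM), the gamma sum in ACB and CUL4-5 (505.9 and 505.3 TPM), and in mESC the gamma sum was 37.3 to 41.6 TPM with the alpha and beta sums near 0.

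Oligodendrocyte markers differed between the punches in the direction opposite to these sums. The summed TPM of 3 oligodendrocyte markers (Mbp, Mog and Mag) was 357 to 1247 in the cortical libraries, 2309 to 3164 in ACB, 5136 to 10268 in VTA, 5831 to 9172 in the hindbrain nuclei and 6534 to 10987 in CBN. Across the 18 adult regions the group mean of this sum had a Spearman rho of -0.89 with the alpha sum (Pearson r = -0.83), -0.56 with the beta sum (r = -0.66) and -0.73 with the gamma sum (r = -0.84). The corresponding values for 5 neuronal markers were 0.51 (r = 0.67), 0.27 (r = 0.21) and 0.21 (r = 0.25). For astrocyte markers rho was -0.40, -0.06 and -0.07 with the alpha, beta and gamma sums, and for microglial markers 0.34, 0.04 and 0.10. These values are descriptions, since markers and members were read from the same libraries and on the same TPM scale. The part of cell composition in the regional differences was not tested.

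Gamma members held most of the family's transcripts everywhere. Their mean share of the members' TPM was 72.9% in the adult brain, 77.7% in the embryonic brain and 98.4% in mESC, while alpha members held 12.7%, 9.56% and 0.231%. In the embryonic brain the alpha sum ran from 20.7 through a median of 45.1 to 55.1 TPM over the 9 libraries, the beta sum from 24.6 through 58.1 to 74.2 TPM and the gamma sum from 155.1 through 345.1 to 412.4 TPM. Averaged over regions the embryonic sums were 40.4 TPM for alpha, 52.6 for beta and 321.9 for gamma, against 58.6, 65.5 and 349.7 in the adult brain. The single F library was the lowest of all brain libraries for alpha (20.7 TPM) and beta (24.6 TPM) but not for gamma (267.8 TPM). Without it the embryonic mean of the beta sum was 62.0 TPM.

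C types accounted for a large part of the alpha and gamma sums. Pcdhac2 alone made up 39.1% of the alpha sum in the adult brain, at a mean of 22.9 TPM, and the next rows, Pcdha11 (a sum of 2 gene identifiers) and Pcdha4, reached 4.59 and 4.34 TPM. Together the 2 alpha C types held 42.9% of the alpha sum in adult regions, from 35.3% in DMH to 56.8% in CENT2, and 24.5% in the embryonic brain. In the gamma cluster the 3 C types held 58.6% of the adult sum, led by Pcdhgc4 (101.8 TPM), Pcdhgc3 (63.5 TPM) and Pcdhgc5 (43.1 TPM), and 46.6% of the embryonic sum, where Pcdhgc3 (78.1 TPM) came before Pcdhgc4 (63.3 TPM) and the B-type member Pcdhgb6 (18 TPM) was the third. These gamma shares and orders rest on short transcripts. From transcripts of 2500 bases or more, a choice made after the data were seen, the 3 C types held 42.7% of the adult and 36.1% of the embryonic gamma sum, and the adult means were 63.5 TPM for Pcdhgc3, 28.5 TPM for Pcdhgc5 and 16.0 TPM for Pcdhgc4. The beta cluster has no C type and no leading member: Pcdhb20, Pcdhb9 and Pcdhb17 were highest in the adult brain at 6.18, 6.00 and 5.95 TPM, and Pcdhb20, Pcdhb17 and Pcdhb7 in the embryonic brain at 5.49, 5.27 and 5.25 TPM.

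Most members were measured in every brain region but at modest levels. All 22 gamma members had a mean of at least 1 TPM in all 22 brain regions. Among adult regions 10 to 12 of 13 alpha members and 18 to 21 of 22 beta members reached 1 TPM, while 9 alpha and 10 beta members did in F. Pcdha8 and Pcdhb1 reached it in no brain region, with highest means of 0.834 TPM in FRP and 0.639 TPM in ACB. Pcdhb1, the first gene of the beta cluster, had 209 counts over all 57 adult libraries and no count in 15 of them. Its counts were 19, 8 and 18 in the 3 ACB libraries, 16, 16 and 14 in ARH, 8 and 12 in VMH, and 10, 2 and 4 in VTA, and it had no count in the 3 DVC libraries or in any of the 9 embryonic libraries.

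Members varied between adult regions by a few-fold. The highest regional mean exceeded the lowest by a median of 3.11-fold for alpha, 2.61-fold for beta and 3.46-fold for gamma members. Among the 56 members above 0 in every adult region, the widest range belonged to Pcdhgc5, 29.8-fold from 4.28 TPM in VTA to 127.7 TPM in ACA, followed by Pcdha12 (6.79-fold), Pcdhac1 (6.69-fold), Pcdhb13 (5.89-fold) and Pcdhgb2 (5.63-fold). Pcdhb3 and Pcdhb22 had the narrowest ranges, 1.73-fold and 1.82-fold. No ratio can be given for Pcdhb1, at 0.639 TPM in ACB and 0 in DVC. The region of the highest mean differed by cluster: 10 of 13 alpha members peaked in a cortical area, 14 of 22 beta members in CUL4-5 or ACB, and 15 of 22 gamma members in ACB or CUL4-5. The lowest mean fell in CBN for 8 alpha members and in VTA for 17 gamma members, or 9 and 14 without replicate 1 of VTA.

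Regional profiles were more alike within the gamma cluster than within the others. The median Spearman rho between the profiles of a pair of non-C members over the 18 adult regions was 0.78 for gamma (171 pairs), 0.63 for alpha (55 pairs) and 0.46 for beta members (231 pairs). Between clusters it was 0.57 for beta with gamma, 0.28 for alpha with beta and 0.29 for alpha with gamma. Among C types, Pcdhgc3 had a median rho of 0.71 with the other gamma members and -0.05 with the alpha members, and Pcdhgc5 had 0.60 with the alpha members and 0.59 with the gamma members. All members were read from the same libraries, and alpha members and gamma members share constant exons within their cluster. These values therefore describe these libraries and carry no test. The median count of a member per library was 301 for gamma, 143 for alpha and 81.1 for beta. The part of counting error in these values was not tested.

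**Figure D2:**
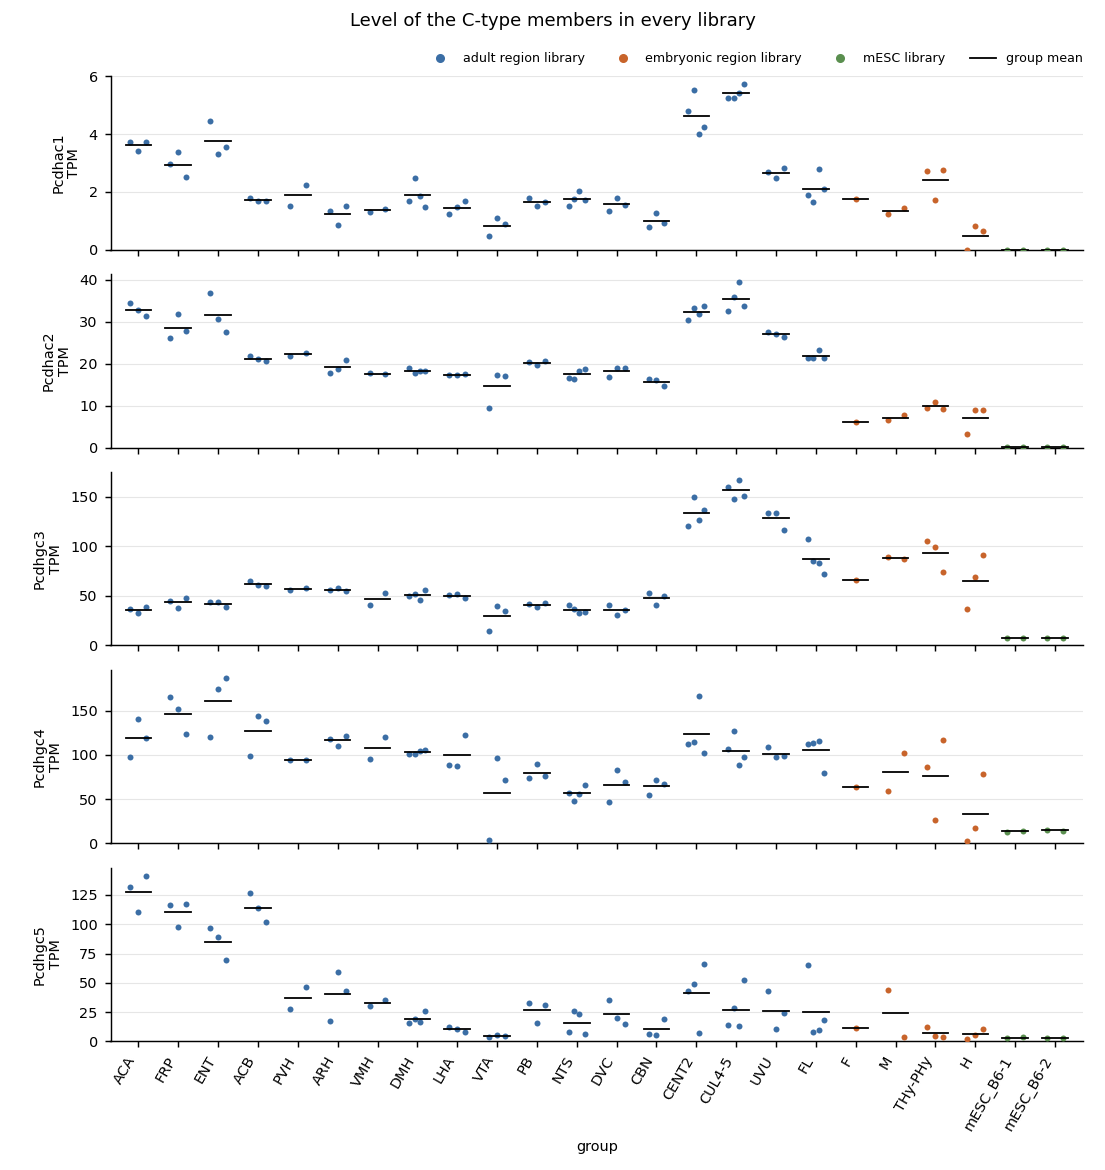
TPM of the 5 C-type members in each group; points are libraries and bars are group means. Pcdhgc5 was at 69.1 to 141 TPM in cortical and 102 to 127 TPM in ACB libraries, and Pcdhgc3 at 72.0 to 167 TPM in the cerebellar cortex, above all other adult libraries.

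Each adult comparison set 1 anatomical system against the mean of the remaining adult regions. A member was called when edgeR's quasi-likelihood test on the estimated counts gave an adjusted p (Benjamini-Hochberg over 19980 genes) under 0.05 and a log2 fold change beyond 1 in either direction. All 57 members could be tested. In a test for any difference among the 18 adult regions, with no fold threshold, 55 of 57 members passed, beside 80.9% of all genes. The exceptions were Pcdha8 (edgeR adjusted p = 0.169) and Pcdhgc4 (edgeR adjusted p = 0.104).

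In the cortex 4 members were called, 7.02%, all higher, beside 16.1% of all genes in either direction and 8.17% higher. The largest difference was that of Pcdhgc5. Its level was 69.1 to 141 TPM with a median of 110 in the 9 cortical libraries and 3.44 to 127 TPM with a median of 19.7 in the 48 others, so the ranges overlapped, through the 3 ACB libraries. Its log2 fold change was 3.17 (SE 0.07, edgeR adjusted p = 2.15e-40). Pcdha12 stood at 5.51 to 11.8 TPM (median 7.58) against 1.12 to 6.14 TPM (median 3.06) elsewhere, a log2 fold change of 1.5 (SE 0.10, edgeR adjusted p = 3.33e-18). Pcdha5 and Pcdhac1 were higher by 1.04 and 1.03 on the log2 scale, and all 3 called alpha members therefore differed in the same direction. The other C types were not called: Pcdhac2 had a log2 fold change of 0.70 and Pcdhgc3 of -0.45. The median log2 fold change was 0.75 over alpha, 0.06 over beta and 0.24 over gamma members, and -0.03 over all genes. No beta member was called. The call of Pcdhac1 ended without replicate 1 of ENT (0.99) or replicate 2 of FRP (0.97).

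In ACB 6 members were called, 10.5%, all higher, beside 12.8% of all genes in either direction and 7.3% higher. Pcdhgc5 had 127, 114 and 102 TPM in the 3 libraries and a log2 fold change of 2.73 (SE 0.10, edgeR adjusted p = 7.59e-30), with overlap only with cortical libraries, which reached 141 TPM. Pcdhb13 had 5.54, 4.5 and 3.62 TPM against at most 3.53 TPM in the 54 other adult libraries, and Pcdhga9 had 17.3, 13.3 and 11.9 TPM against at most 10.59 TPM. The ranges of both did not overlap with the rest, and their log2 fold changes were 1.41 (SE 0.15, edgeR adjusted p = 5.57e-11) and 1.41 (SE 0.13, edgeR adjusted p = 2.38e-13). Pcdhb1 was higher by 2.95 (SE 0.44, edgeR adjusted p = 2.95e-07) on counts of 8 to 19, Pcdhga1 by 1.07 and Pcdhb6 by 1.01. The mean of Pcdhb1 was 0.639 TPM in ACB and 0.622 TPM in ARH. The regions set against ACB included DVC, which had no count of Pcdhb1. No alpha member was called, and the median log2 fold change was 0.18 over alpha, 0.48 over beta and 0.59 over gamma members. Pcdhb6 lost its call (0.96 to 1.00) when any 1 of 12 libraries was left out, namely replicate 3 of ACB, CBN or VTA, replicate 1 of ARH, DVC, PB or VMH, or replicate 2 of ACA, CENT2, FRP, LHA or PVH.

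In the cerebellar cortex 3 gamma members and no alpha or beta member were called, all higher. Of all genes 18% were called in either direction and 8.21% higher. Pcdhgc3 ran from 72.0 through a median of 134 to 167 TPM in the 15 libraries and from 14.9 through 43.9 to 65.3 TPM in the 42 other adult libraries, with no overlap. Its log2 fold change was 1.32 (SE 0.04, edgeR adjusted p = 2.27e-33). CUL4-5 was highest with 156.8 ± 8.71 TPM (n = 4) and FL was lowest of the 4 parts with 87.0 ± 14.8 TPM (n = 4), while the neighbouring cerebellar nuclei had 47.8 ± 5.89 TPM (n = 3). Pcdhgb2 stood at 6.62 to 16.9 TPM (median 14.2) against 1.96 to 8.54 TPM (median 5.04), a log2 fold change of 1.19 (SE 0.06, edgeR adjusted p = 1.49e-23), and Pcdhgb8 was higher by 1.01. Other C types moved less: Pcdhac1 by 0.84, Pcdhac2 by 0.33 and Pcdhgc5 by -0.86. Pcdhgb8 lost its call (0.98 to 1.00) when any 1 of 15 libraries was left out: replicate 1 of CUL4-5, LHA, PVH or VMH, replicate 2 of CBN, CENT2, DVC, FL, FRP or UVU, or replicate 3 of ARH, ENT, FL, PB or VTA.

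The hypothalamus and the hindbrain nuclei had the fewest members past the fold threshold. With no fold threshold 27 members passed in the hypothalamus, 9 higher and 18 lower, and 42 in the hindbrain nuclei, 4 higher and 38 lower. The share of all genes without the threshold is not given here, so these counts show nothing particular to the members. In the hypothalamus 1 member was called, Pcdhb1, beside 8.84% of all genes, with a log2 fold change of 1.87 (SE 0.33, edgeR adjusted p = 5.07e-06). It had 94 counts over 14 libraries, and the ranges overlapped with the other regions. The median log2 fold change of the clusters was -0.10 for alpha, -0.22 for beta and -0.01 for gamma. In the hindbrain nuclei 2 members were called, both lower, beside 7.84% of all genes in either direction and 2.67% lower. These were Pcdhb1 (log2 fold change -2.16, SE 0.59, edgeR adjusted p = 0.00194), on 14 counts over 10 libraries, and Pcdhgc5 (-1.41, SE 0.09, edgeR adjusted p = 1.88e-19), at 5.87 to 35.0 TPM with a median of 21.9 against 3.44 to 141 TPM with a median of 28.4 in the 47 other adult libraries. These ranges overlapped, and the means of PB (26.4 TPM), DVC (23.3 TPM) and NTS (15.8 TPM) lay above those of CBN (10.2 TPM), LHA (10.2 TPM) and VTA (4.28 TPM). With limma on log2(TPM + 0.5) the log2 fold change was -0.61 (limma adjusted p = 0.113, and 0.113 to 0.144 over the limma settings), and the call ended. The gamma members had a median log2 fold change of -0.54 there, against -0.19 for alpha and -0.20 for beta. The call of Pcdhb1 in the hindbrain nuclei ended without replicate 3 of ACA, replicate 4 of FL or replicate 1 of UVU (-2.06 to -1.97). Each of these libraries held the only counts of the gene in its region. Without them the SE was 2925, 4461 and 2982, so these fits gave no usable test. DVC had no count of the gene in the fit with all libraries.

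**Figure D3:**
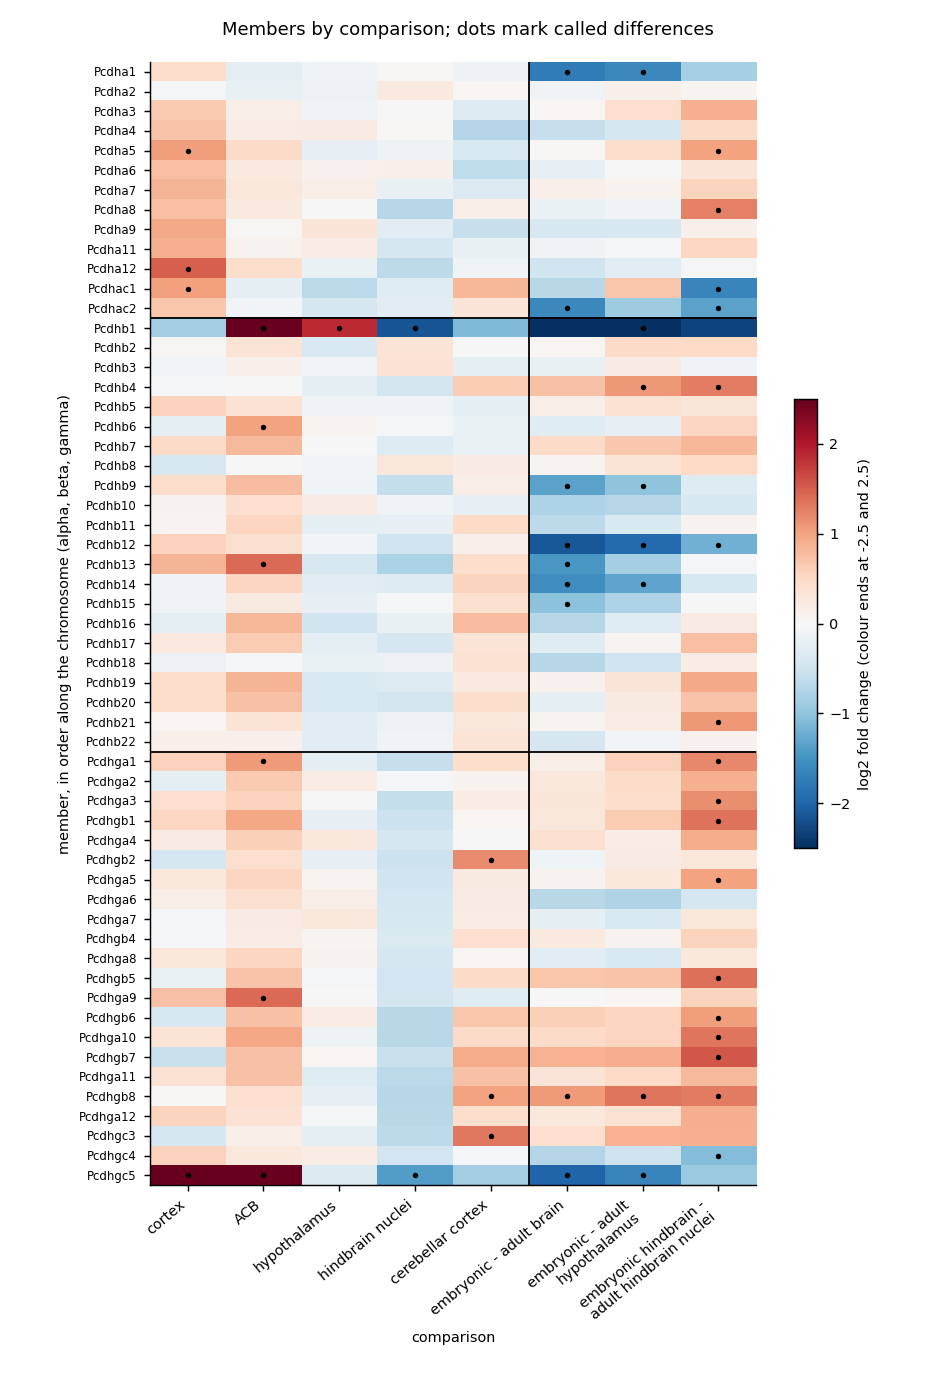
Log2 fold change of every member in the comparisons, in genomic order, as a colour scale that is capped at the values on its bar; a dot marks a called member. Among the called C types are Pcdhgc5 in the cortex (3.17), ACB (2.73) and the hindbrain nuclei (-1.41) and Pcdhgc3 in the cerebellar cortex (1.32).

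The level of Pcdhgc4 turned on a shorter transcript. In the adult brain 84.3% of its TPM was assigned to a 4-exon transcript of 2272 bases (ENSMUST00000195239), of whose 31-base stretches 6.74% were found in no other gene's transcripts, and 13.8% to the full-length transcript of 5024 bases (ENSMUST00000066140), with 58.1%. The shorter transcript ranged from 0 to 181.6 TPM between adult libraries, with 0 in replicate 1 of VTA, where the gene had 3.34 TPM in all against 96.4 and 71.4 TPM in the other 2. In H the gene had 3.10, 17.7 and 77.8 TPM. The full-length transcript gave another regional order. Its mean was 22.7 TPM in the hypothalamus, 15.4 in the hindbrain nuclei, 11.2 in the cerebellar cortex, 7.85 in the cortex and 7.79 in ACB, whereas the gene as a whole was highest in ENT (160.5 TPM) and lowest in NTS (56.6 TPM). Counted from transcripts of 2500 bases or more, an alternative chosen after the data were seen, Pcdhgc4 was called higher in the hypothalamus (log2 fold change 1.06, edgeR adjusted p = 1.06e-14, against 0.19 and 0.32 with all transcripts). The same counts turned its direction in the cortex (-0.78 against 0.57), in ACB (-0.66 against 0.26) and in the hindbrain nuclei (0.27 against -0.47), none of them called. The regional order of Pcdhgc4 thus differed with the transcripts that were counted.

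**Figure D4:**
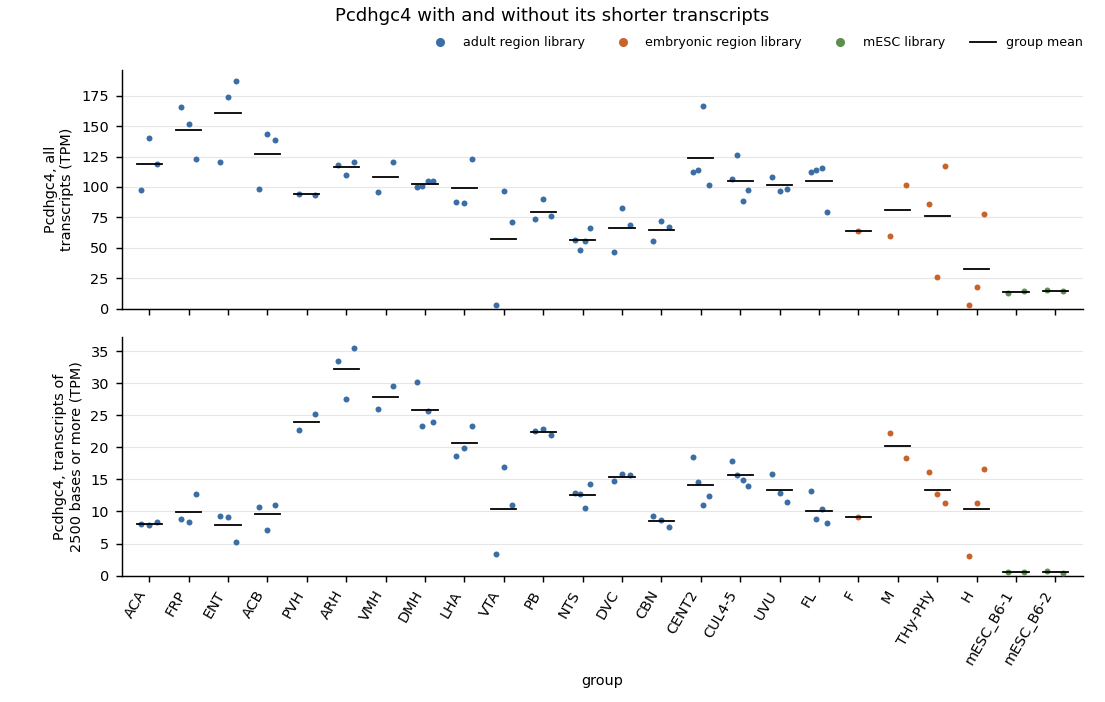
TPM of Pcdhgc4 in each group, from all transcripts in the upper panel and from transcripts of 2500 bases or more in the lower panel; points are libraries and bars are group means. With long transcripts the arcuate nucleus had the highest mean (32.1 TPM) and ENT the lowest adult mean (7.87 TPM), while with all transcripts ENT was highest (160.5 TPM).

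The same division touched Pcdhgc5, whose calls in the 9 comparisons were the same with long transcripts. Its full-length transcript (ENSMUST00000055935) held 87.8% of its TPM in the cortex and 82.4% in ACB but 45.9% in the hypothalamus, 25.8% in the hindbrain nuclei and 28.8% in the cerebellar cortex. The remainder lay mostly on transcripts of 444 and 593 bases. From long transcripts it had 66.4 to 118.2 TPM in cortical libraries and 92.7 to 99.2 TPM in ACB, against at most 17.7 TPM in any hypothalamic library, and log2 fold changes of 3.30 in the cortex and 2.84 in ACB. Shorter transcripts held 27.7% of the gamma sum over all groups, 4.15% of the beta sum and 0.90% of the alpha sum.

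Between embryonic and adult brain 9 of 57 members were called, 15.8%, beside 37.7% of all genes. Of these 8 were lower in the embryo, 14% of members beside 19.9% of all genes: 2 of 13 alpha, 5 of 22 beta and 1 of 22 gamma members. The clearest was Pcdhb12, at 0.469 to 2.02 TPM (median 1.31) in the 9 embryonic libraries and 2.10 to 6.84 TPM (median 4.57) in the 57 adult libraries, without overlap. Its log2 fold change was -2.12 (SE 0.13, edgeR adjusted p = 6.86e-21). Pcdhb14 likewise did not overlap, with 0.353 to 1.30 TPM against 1.33 to 3.91 TPM and a log2 fold change of -1.54 (SE 0.12, edgeR adjusted p = 3.17e-17). Among C types Pcdhac2 had 3.30 to 10.9 TPM (median 8.85) against 9.42 to 39.5 TPM (median 21), where replicate 1 of VTA made the ranges meet, and a log2 fold change of -1.62 (SE 0.07, edgeR adjusted p = 3.03e-26). Pcdhgc5 had 1.80 to 43.8 TPM (median 5.47) against 3.44 to 141 TPM (median 26.2), a log2 fold change of -2.0 (SE 0.11, edgeR adjusted p = 1.45e-22). Its high embryonic value came from replicate 1 of M, where the full-length form and other long transcripts held 5.05 TPM.

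The remaining calls between the stages were smaller. Pcdha1 (-1.75), Pcdhb13 (-1.45), Pcdhb9 (-1.34) and Pcdhb15 (-1.03) were lower in the embryo, and Pcdhgb8 was the only member called higher, at 2.87 to 6.14 TPM (median 4.83) against 0.674 to 6.43 TPM (median 2.40) and a log2 fold change of 1.06 (SE 0.12, edgeR adjusted p = 2.28e-11). Most calls were lower in the embryo in the versions given here. Which members were called, and how many in each direction, depended on the F library and the test. Without the F library 9 members were called, 3 higher and 6 lower, of which 7 were among those named, while 7 were called, 1 higher and 6 lower, when F stayed in the fit but out of the embryonic mean. With limma on log2(TPM + 0.5) no member was called higher and 5 lower. Pcdhac1 (-0.69), Pcdhgc3 (0.42) and Pcdhgc4 (-0.73) were not called. The median log2 fold change was -0.20 over alpha, -0.37 over beta and 0.27 over gamma members, against 0 over all genes. Pcdhb9 lost its call without the F library (-0.91). Pcdhb15 lost it (-1.0 to -0.54) when any 1 of 8 libraries was left out: the F library, replicate 2 or 3 of ARH, replicate 3 of H, replicate 2 of M, replicate 1 or 2 of THy-PHy, or replicate 1 of VTA. Pcdhb1 had no count in 9 embryonic libraries and 209 in the adult ones, a level at least 11.3-fold lower than the adult mean when 3 counts over the embryonic group are taken as the floor, and the fit gave no usable test of this gene here (edgeR adjusted p = 1.00).

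Matching regions gave 2 further views of development. THy-PHy and the adult hypothalamus differed in 8 members, beside 38.2% of all genes. Pcdhb12 had 0.92, 0.731 and 1.58 TPM in the 3 embryonic libraries against 3.72 to 5.16 TPM (median 4.48) in the 14 adult ones, a log2 fold change of -1.95 (SE 0.19, edgeR adjusted p = 4.36e-13). Pcdha1 (-1.61), Pcdhgc5 (-1.67), Pcdhb14 (-1.31) and Pcdhb9 (-1.01) were also lower, and Pcdhgb8 (1.33) and Pcdhb4 (1.09) were higher. Pcdhb4 did not overlap, with 2.61, 2.34 and 2.20 TPM against 0.894 to 1.61 TPM. Pcdhb1 was called lower with 0 counts in THy-PHy against 94 in the adult hypothalamus, a level at least 6.71-fold lower at a floor of 3 counts over the 3 libraries. Pcdhgc3 was short of the fold threshold at 0.86, though its libraries (105, 99.3 and 74.1 TPM) lay above all adult hypothalamic ones (40.9 to 58.2 TPM). Pcdhb9 lost its call (-1.0 to -0.92) when any 1 of 17 libraries was left out, namely replicate 1 or 3 of THy-PHy, replicate 1, 2 or 3 of ARH, replicate 1 of CENT2, DMH, LHA, PVH, VMH or VTA, replicate 2 of ACB, the F library, replicate 3 of H, replicate 1 or 2 of M, or replicate 3 of UVU.

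H and the adult hindbrain nuclei differed in 17 members, 29.8%, beside 44% of all genes. Higher in the embryo were 13 members, 22.8%, beside 23% of all genes. Of these 13 members 9 were gamma members. The gamma cluster had a median log2 fold change of 0.90, against 0.32 for alpha and 0.19 for beta. Pcdhgb7 had 10.8, 15.8 and 15 TPM against 4.00 to 6.09 TPM (median 5.08) in the 10 adult libraries, a log2 fold change of 1.55 (SE 0.11, edgeR adjusted p = 2.51e-18). Pcdhgb5 (1.38), Pcdhgb1 (1.35), Pcdhga10 (1.33), Pcdhgb8 (1.29) and Pcdhga1 (1.20) also lay above the adult range in all 3 libraries. Pcdhb4 (1.28) and Pcdha8 (1.27) overlapped with it. The 4 lower members, 7.02% beside 21.1% of all genes, included 3 C types. Pcdhac2 had 3.30, 8.97 and 8.85 TPM against 16.3 to 20.6 TPM (log2 fold change -1.34, SE 0.11, edgeR adjusted p = 2.84e-15). Pcdhac1 had 0, 0.832 and 0.636 TPM against 1.34 to 2.03 TPM (-1.66, SE 0.29, edgeR adjusted p = 1.75e-06). Pcdhb12 (-1.19) was lower as well, and Pcdhgc4 (-1.09) had 3.10, 17.7 and 77.8 TPM against 46.3 to 90.0 TPM.

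The libraries of H were uneven, and the count depended on which was used. Without replicate 1, the shallow library with the high mitochondrial share, 18 members were called, 14 of them among the 17, with Pcdhac1 at -1.20, Pcdhac2 at -1.11 and Pcdhgc3 called at 1.05. Pcdhgc4 was not called then (-0.60), nor without replicate 2 (-0.94), nor from transcripts of 2500 bases or more (-0.81). Calls of Pcdha8 ended without replicate 2 or 3 of H (0.59 to 1.20), that of Pcdhb21 without replicate 1 of H (0.83) and that of Pcdhgb6 without replicate 2 of H (0.93). Those of Pcdha5 (0.93 to 1.00; replicates 1 and 2 of H, 1 and 2 of PB, 1 and 3 of NTS and 3 of DVC) and Pcdhga5 (0.93 to 1.00; replicate 2 of H, 1 and 2 of NTS, 1 of PB and 2 of DVC) ended without any 1 of the libraries named. Without replicate 2 of H 14 members were called and without replicate 3 of H 19.

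The change from adult to embryo was compared between hindbrain and hypothalamus within the same fit, a comparison added after the data were seen. It called 1 member, Pcdhac1, beside 9.84% of all genes. Pcdhac1 had 2.72, 1.73 and 2.76 TPM in THy-PHy against a median of 1.5 TPM in the adult hypothalamus, and was thus higher in the embryonic region there (log2 fold change 0.69, not called), while it was lower in H. The difference between the log2 fold changes was -2.35 (SE 0.37, edgeR adjusted p = 3.28e-06), and -1.89 without replicate 1 of H. The number of members called rose to 3 without that library, to 7 without replicate 3 of H and to 4 without replicate 2 or 3 of THy-PHy.

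Stem cells separated the gamma cluster from the other clusters. The alpha sum was 0.0564 to 0.135 TPM and the beta sum 0.529 to 0.666 TPM in the 4 mESC libraries, while the gamma sum was 37.3 to 41.6 TPM. The 13 alpha members had 23 counts in all over the 4 libraries, the 22 beta members 173 and the 22 gamma members 6350. Pcdhac2, with 9 counts, was the only alpha member above 3 counts, and Pcdha2, Pcdha6, Pcdha12 and Pcdhac1 had none. Of the beta members 7 had none after rounding and 11 had 1 to 3. Pcdhb6, among those without counts after rounding, had a mean of 0.0125 TPM in B6-1. The beta counts belonged mostly to Pcdhb22, the last gene of the cluster, with 84 counts, and to Pcdhb14 with 62. All 22 gamma members had more than 3 counts, from 26 for Pcdhga6 to 1572 for Pcdhgc3 and 1481 for Pcdhgc4. After these C types the highest were Pcdhga12 (674 counts) and Pcdhga11 (458 counts), at the end of the A and B types next to the C types, while Pcdhgc5 had 233.

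Against mESC 55 of 57 members were called, all higher in the embryonic brain, beside 29% of all genes called higher and 55.8% called in either direction. The median log2 fold change was 8.80 for alpha, 7.75 for beta and 3.42 for gamma. Folds against members without counts after rounding are lower bounds, with 3 counts over the 4 mESC libraries as the floor. Embryonic levels of Pcdha6, Pcdha12, Pcdha2 and Pcdhac1 were at least 202-fold, 200-fold, 191-fold and 106-fold higher than that floor, and those of the 7 beta members without counts at least 56.4-fold to 106-fold higher, with Pcdhb4 at 106-fold and Pcdhb9 at 101-fold. Pcdha9 and Pcdhb19 had 1 count each, and the ratios were 647 (95% exact Poisson interval of the mESC count 116 to 25572) and 668 (120 to 26396). Intervals and floors cover counting error only. Pcdhac2 rose from 0.0161 to 0.0514 TPM in mESC to 3.30 to 10.9 TPM, a log2 fold change of 7.38 (SE 0.21, edgeR adjusted p = 4.5e-35). Pcdhgc3 rose from 7.59 to 7.94 TPM to 36.4 to 105 TPM, a log2 fold change of 2.96 (SE 0.10, edgeR adjusted p = 2.34e-31).

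Gamma members differed in how far apart the embryonic brain and mESC were. Pcdhgb6 (5.62) and Pcdhga6 (5.18) had the largest log2 fold changes, and Pcdhga12 (1.70), Pcdhgc5 (1.60), Pcdhgb8 (1.53) and Pcdhgc4 (1.92) were among the smallest. Pcdhgc4 and Pcdhgc5 overlapped with mESC, at 12.8 to 15 TPM and 2.42 to 3.87 TPM there, in both cases through replicate 1 of H (3.10 and 1.80 TPM). From long transcripts, however, Pcdhgc4 was at 0.387 to 0.776 TPM in mESC and its log2 fold change was 4.17 (edgeR adjusted p = 4.46e-20). Pcdhga1, the first gene of the gamma cluster, missed the fold threshold at 0.98 and also overlapped, and Pcdhb1 had 1 mESC count and none in the embryo.

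**Figure D5:**
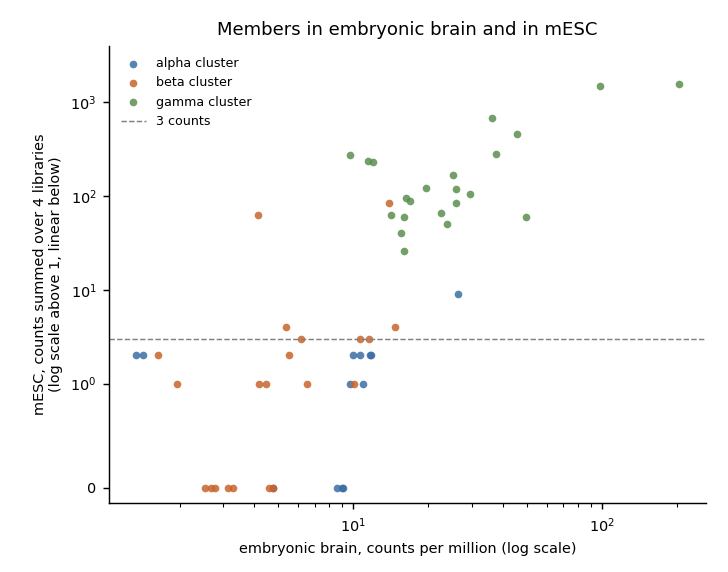
Each member's mean library-scaled count (CPM) in the embryonic brain (log scale) against its counts summed over the 4 mESC libraries (log scale above 1); the dashed line marks 3 counts. All 22 gamma members lie above the line, with 26 to 1572 counts, and 1 of 13 alpha and 4 of 22 beta members do. Pcdhb1, with no embryonic count, cannot be placed on the log scale.

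Genes that act with or on the clusters were followed in the same comparisons. Of 15 genes for chromatin proteins that act at protocadherin promoters or at DNA loops and methylation, 9 were higher and none lower in the embryonic than in the adult brain (median log2 fold change 1.11), beside 17.8% of all genes higher and 19.9% lower. They included the DNA methyltransferases Dnmt3b (2.83) and Dnmt1 (1.70), the cohesin subunit Smc3 (1.32) and the cohesin loader Nipbl (1.27). Against mESC, where 29% of all genes were higher in the embryonic brain and 26.8% lower, none was higher and 3 were lower, Dnmt3b (-4.85), the cohesin release factor Wapl (-2.16) and Dnmt1 (-1.12). Of 12 protocadherins outside the clusters 3 were higher in the embryo (Pcdh12 3.37, Pcdh18 2.03, Pcdh8 1.02) and 3 lower (Pcdh20 -2.23, Pcdh9 -2.04, Pcdh7 -1.14) than in the adult. All 12 were higher than in mESC, with a median of 7.55, led by Pcdh9 (10.48) and Pcdh11x (10.02). Of 13 partners and proteases 1 was higher (the N-cadherin gene Cdh2, 1.38) and 3 were lower in the embryo than in the adult, namely the kinase Ptk2b (-4.71) and the WAVE complex members Cyfip2 (-1.83) and Nckap1 (-1.10). Against mESC 5 were higher and 2 lower, among them Cdh2 (6.81), Cyfip2 (3.96) and Ptk2b (-4.34).

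Markers of other cells moved with stage. Over the embryonic libraries the neuronal markers summed to 937 to 2926 TPM, against 2010 to 5319 in the adult and 43.6 to 74.4 in mESC, the progenitor markers to 596 to 2377 TPM against 43.0 to 677.9 in the adult, and the oligodendrocyte markers to 11.5 to 21.6 TPM against 357 to 10987. Markers of mESC (Pou5f1, Nanog, Zfp42 and Esrrb) summed to 1818 to 1926 TPM in mESC and to at most 17.2 TPM in any brain library. Choroid plexus markers summed to 3488 to 12473 TPM in CBN, the adult region with the lowest alpha and beta sums, and reached 10511 TPM in 1 library of the hindbrain nuclei. The part of these cells in the members' differences was not tested.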

How the data were processed

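Punches of adult and embryonic brain and mESC were profiled as strand-specific poly(A) RNA with single reads. The authors called bases with CASAVA 1.8.2 and pseudoaligned the reads to GRCm38 transcripts with kallisto, and deposited estimated counts per transcript and TPM per transcript and gene. The members and gene lists were chosen with earlier results of these data known. Deposited estimated counts were summed per gene (107987 of 109282 transcripts had a gene) and rounded for the test. A one-way model over the 24 groups was fitted in edgeR 4.0.16 (R 4.3.3) with TMM factors, its filter on low counts (19980 genes kept) and the quasi-likelihood test, with Benjamini-Hochberg adjustment over all genes kept. A call needed an adjusted p under 0.05 and a log2 fold change beyond 1. Levels are deposited TPM, and a set's mean is the mean of its group means. The script was tested on simulated data with known folds.

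Named members are the 5 C types, up to 8 called members per direction with the largest change in each comparison, and the 3 highest members of each cluster and of its embryonic and mESC levels; from other lists up to 4 called genes were named. Pcdhb1, Pcdha8 and the members at the ends of ranges were in part named after their values were seen. Alternatives were DESeq2 1.42.0, no filter, limma 3.58.1 on log2(TPM + 0.5) or log2(TPM + 0.1), a replicate block, leaving out mESC, F, VTA replicate 1 or any single library, no fold threshold, and TPM without mitochondrial genes. Fits without 1 library were made for the members, which were called at the largest unadjusted p called with all libraries. Transcripts of 2500 bases or more, the whole-number tolerance, regional minima without VTA replicate 1 and the difference between hindbrain and hypothalamus were added after the data were seen. One cell type marker is not reported here and was left out of its sum.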

Additional observations from a re-analysis of the deposited data

Results flagged for a closer look

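Of 140 checks of a member or a cluster sum in a group of 4 libraries, 9 had 1 library far from the others, where chance gives about 1 in 20. For Pcdhb1 in FL and NTS the library apart held 1 count and the others 0, so those checks show only a single count. In FL, replicate 2 had 0.889 TPM of Pcdha1 (others 1.24 to 1.27), replicate 3 had 23.2 TPM of Pcdhac2 (21.3 to 21.5), replicate 4 had 0.0381 TPM of Pcdhb1 (others 0) and 79.8 TPM of Pcdhgc4 (112 to 115), and replicate 1 had 5.30 TPM of Pcdhb12 (3.48 to 3.77) and 2.39 TPM of Pcdhb6 (1.16 to 1.33). In NTS, replicate 1 had 0.0406 TPM of Pcdhb1 (others 0) and replicate 4 had 1.73 TPM of Pcdhb14 (1.33 to 1.37). In DMH, replicate 4 had 2.74 TPM of Pcdhgb8 (2.53 to 2.56).

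The change of Pcdhac1 from adult to embryo differed between hindbrain and hypothalamus by -2.35 on the log2 scale in the test of the difference itself (edgeR adjusted p = 3.28e-06), lower in H and higher in THy-PHy.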

How the results depend on the processing

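Between members and libraries, estimated reads shared by near-identical genes and a single F library limit the precision. Of the values for named members, 884 kept their direction and their side of the threshold, 73 were no longer called, 6 became called and 6 reversed. The reversals were all of Pcdhgc4: -0.78 in the cortex, -0.66 in ACB and 0.27 in the hindbrain nuclei with transcripts of 2500 bases or more, and 0.26 in the cerebellar cortex with limma on log2(TPM + 0.5), with or without a filter, and on log2(TPM + 0.1); the cause was not tested. With limma on log2(TPM + 0.5), with or without the filter, 5 members were called between embryonic and adult brain, 2 in the hypothalamus of the embryo against the adult, 11 in the hindbrain of the embryo against the adult, 2 in the cortex, 3 in ACB, and 0 in the adult hypothalamus and hindbrain nuclei. With log2(TPM + 0.1) these were 2 in the cortex, 0 in the adult hypothalamus and hindbrain nuclei and 2 for the difference between hindbrain and hypothalamus. With no fold threshold 39 members passed between embryonic and adult brain, 35 and 42 in the embryonic hypothalamus and hindbrain against the adult, 40 in the cortex, 33 in ACB, 27 in the adult hypothalamus, 42 in the hindbrain nuclei, 42 in the cerebellar cortex and 27 for the difference. These counts without a fold threshold are given without the share of all genes and show only how the calls depend on the threshold. Counts from long transcripts called 2 members in the adult hypothalamus. Leaving out 1 library gave 8 to 9 calls between embryonic and adult brain, 55 to 56 against mESC, 7 to 8 and 14 to 19 in the embryonic hypothalamus and hindbrain, 3 to 4 in the cortex, 5 to 7 in ACB, 1 in the adult hypothalamus, 1 to 2 in the hindbrain nuclei, 2 to 3 in the cerebellar cortex, 54 to 57 in the test over regions and 1 to 7 for the difference (7 without replicate 3 of H).

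The adult sums were 64.0 TPM for alpha and 71.6 TPM for beta without mitochondrial genes. Leaving out 1 library gave an embryonic beta sum of 51.7 to 62.0 TPM and a ratio to the adult sum of 0.790 to 0.947, both highest without F. With long transcripts the gamma sum was 247.3 TPM in the adult brain and 24.1 TPM in mESC, and the ratio of embryonic brain to mESC 10.8. At a tolerance of 0.01, 2.30% of alpha, 6.38% of beta and 2.40% of gamma values were whole. The median of all genes between embryonic brain and mESC moved by -0.15 with DESeq2, 0.21 with limma at a pseudocount of 0.5, 0.29 at 0.1 and 0.20 without a filter, and in the cerebellar cortex by 0.11 at 0.1.

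The deviations of 669 same-numbered pairs of libraries had a median correlation of 0.008 (51 above 0.1) and those of 1603 other pairs -0.004 (77 above 0.1). Such medians cannot show whether single pairs of libraries shared animals. With the replicate block 7 members were called in the embryonic hypothalamus against the adult, in place of 8, and the counts of the other comparisons were unchanged.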
